A study of Mus musculus with 8 samples.

Results

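Integrins are cell surface receptors made of an alpha and a beta chain, and white blood cells use them to leave the blood, to crawl through matrix and to bind targets for uptake. The beta 2 chain pairs with alpha L, alpha M or alpha X in the leukocyte integrins, which bind intercellular adhesion molecules, fibrin and complement fragments. The beta 1 chain pairs with alpha 4, alpha 5, alpha 6 or alpha V in receptors for vascular adhesion molecules, fibronectin, laminin and other matrix proteins, and the beta 7 chain can take its place beside alpha 4. The genes described here are 10 listed integrin chains, found by symbol among the 53342 genes of each library: the alpha chains Itgam, Itgax, Itgal, Itga4, Itga5, Itga6 and Itgav, and the beta chains Itgb1, Itgb2 and Itgb7. Of these 10 genes, 9 had counts in at least 1 library and 6 were abundant enough to be tested, and the remaining 17 integrin chain genes serve for comparison.

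RNA came from heart macrophages of wild type C57BL/6 animals at post natal week 8. Cells were sorted 3 days after myocardial infarction by a low or a high level of the surface antigen Ly6C and were then cultured for 24 hours. The groups were Ly6Clo with interleukin 21 (IL-21, 100 ng/mL), Ly6Clo without it, Ly6Chi with IL-21 and Ly6Chi without it, with 2 libraries each, numbered 1 and 2 in the labels. All cells had thus been through infarction, sorting and a day in culture, and no library comes from fresh cells or from a heart without infarction. Libraries read the 3' end of messenger RNA, so each transcript gives reads at its end only, and levels are given per library as CPM, counts scaled to a common library total, without division by length. Nothing in the labels ties the replicates to different mice or cultures, so p-values measure only the spread between these libraries, which may be technical.

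Total counts were 224329 to 483593 per library, and 3 counts, the upper limit that a count of 0 allows, correspond to 6.58 to 14.9 CPM. This limit covers counting error only. The sort was visible in the RNA, with Ly6c2, which encodes Ly6C, at 11.99 to 74.6 CPM in the 4 Ly6Clo libraries and at 372 to 546 CPM in the 4 Ly6Chi libraries. All 10 macrophage markers were detected, with a summed level of 8409 to 12808 CPM. The neutrophil genes Ly6g and Retnlg, the B cell gene Ms4a1, the T and NK cell genes Cd3g, Klrb1c and Ncr1, and the platelet genes Itga2b, Gp9 and Gp1ba had 0 counts in every library. Other genes of these lists were present, with Mmp8 of the neutrophil list at 537 to 2152 CPM, S100a8 at 45.7 to 139 CPM, and Pf4 of the platelet list at 1675 to 3551 CPM.

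Itgam, which encodes alpha M (CD11b), a defining surface protein of monocytes and macrophages, was listed at 0 in all 8 libraries. The same stretch of chromosome 7 carries a second annotated protein-coding gene on the same strand, Gm49368 (ENSMUSG00000108596, chr7:128062683-128128160, plus strand, GRCm38), and that gene had 365 to 633 counts per library and 4001 in all. Itgam itself (ENSMUSG00000030786) is annotated at chr7:128062640-128118491. The start of Gm49368 lies 43 bases after that of Itgam, and 29 of the 30 exons of its long transcript are identical to exons of Itgam transcripts. The exons that the genes have in common make up 68.7% of the exonic bases of Itgam. Gm49368 differs in its last exon, of 1353 bases, which begins 8316 bases beyond the annotated end of Itgam and has no base in common with an Itgam exon.

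The junction into the last exon is where the transcripts part, and it is shown because the tags of a 3' end library come from near the end of a transcript. In each sequence, from the GENCODE M21 transcripts on the plus strand, the lower case letters are the last 15 bases of the exon that both use and the capitals are the first 15 bases of the gene's own last exon.
Itgam: gctggcctatacaagCTTGGCTTTTTCAAG
Gm49368: gctggcctatacaagGCAGCCTCAGCTGTG
The bases before the junction are the same and those after it are not. Both junctions lie in coding sequence, with 306 coding bases in the last exon of Gm49368 and 69 in that of Itgam.

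**Figure D1:**
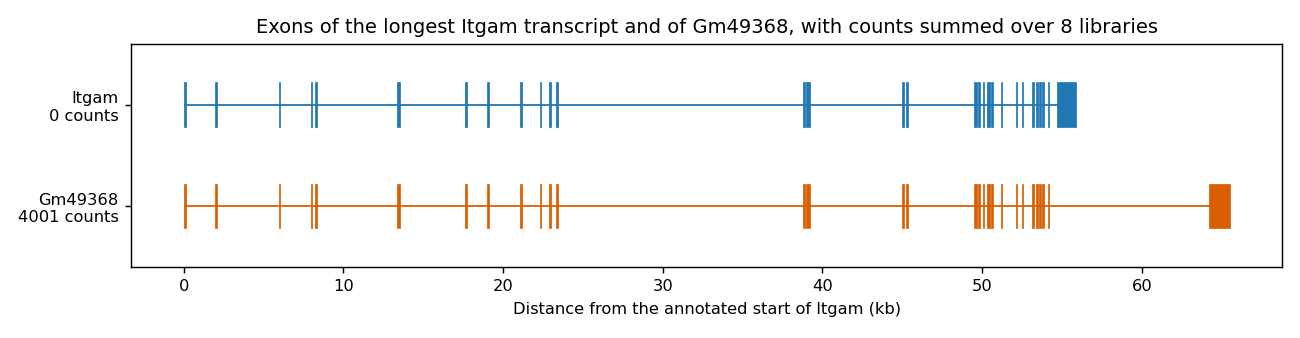
Exons (boxes) of the longest Itgam transcript and of the long Gm49368 transcript against the distance from the start of Itgam in kb, with counts summed over 8 libraries beside each name. Of the 30 exons of each transcript 27 are identical between them and the last exons lie apart, and 4001 counts were assigned to Gm49368 and 0 to Itgam.

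The promoter window of Itgam, from 250 bases before to 50 bases after its annotated start, also holds the annotated start of Gm49368. It is shown beside that of Itgax, the next integrin gene on the strand, whose counts were near 0. Sequences are from RefSeq (GRCm38.p6), Itgam at chr7:128062390-128062689 and Itgax at chr7:128129300-128129599, both on the plus strand, and capitals mark GAGGAA or its reverse complement TTCCTC, a core that the myeloid factor PU.1 can bind, picked as a motif after the Itgam window had been read.
Itgam: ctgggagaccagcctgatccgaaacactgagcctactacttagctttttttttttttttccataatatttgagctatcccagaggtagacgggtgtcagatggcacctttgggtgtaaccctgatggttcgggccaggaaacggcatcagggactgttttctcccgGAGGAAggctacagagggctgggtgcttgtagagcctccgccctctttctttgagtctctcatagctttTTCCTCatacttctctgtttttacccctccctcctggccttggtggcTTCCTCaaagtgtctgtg
Itgax: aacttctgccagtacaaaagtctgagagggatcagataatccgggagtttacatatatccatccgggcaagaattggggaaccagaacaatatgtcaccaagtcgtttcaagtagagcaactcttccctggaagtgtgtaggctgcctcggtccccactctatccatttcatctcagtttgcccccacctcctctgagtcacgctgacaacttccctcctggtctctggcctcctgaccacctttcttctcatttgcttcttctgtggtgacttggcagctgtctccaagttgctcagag
The Itgam window held 3 matches, of which the middle match begins 15 bases before the start, and the Itgax window held 0. Matches did not follow the counts across the other members with a window. Itga4, with 199.8 counts over all libraries, held 0, while the rarer Itga5 (26.7 counts) and Itgb7 (36 counts) held 1 each. Itgb1 held 1 and Itgav 2. Of 32851 such windows, 28.3% hold at least 1 match on either strand, and of the 7 members with a window 5 do. These 5 include Itgam, from whose window the motif was picked, so their share is not a test. No window was available for Itgal, Itga6 and Itgb2. A match is a run of letters and not a measured site.

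Gm49368 is not among the listed genes and was brought in after its counts were seen. Which transcripts its tags came from was not tested, and its counts are given below as those of the locus. In Ly6Clo libraries numbered 1 and 2 the locus had 2127 and 1367 CPM with IL-21, against 2082 and 1119 CPM without it. In Ly6Chi libraries it had 2383 and 1813 CPM with IL-21, against 2025 and 1566 CPM without it. The 4 libraries numbered 1 were all above the 4 numbered 2, while the levels with and without IL-21 overlapped. In each same-numbered comparison the level with IL-21 was the higher, by a log2 ratio of only 0.03 in Ly6Clo number 1. The locus took 43.2 to 53.0% of all integrin counts in a library, more than any other integrin gene.

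Itgb2, which encodes the beta 2 chain (CD18) that alpha L, alpha M and alpha X need to reach the surface, was the most abundant of the listed genes, with 20.2 to 28.7% of integrin counts. In Ly6Clo libraries numbered 1 and 2 it had 873 and 696 CPM with IL-21, against 1032 and 744 CPM without it. In Ly6Chi libraries it had 1050.5 and 819 CPM with IL-21, against 1115 and 898 CPM without it. Its level with IL-21 was below that of the same-numbered library without it in all 4 cases, by small amounts that did not separate the groups. Itgb2 (ENSMUSG00000000290) lies at chr10:77530252-77565708 on the plus strand, and no other annotated gene overlaps it.

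The other partners of beta 2 were rare. Itgal, which encodes alpha L (CD11a), had 33.9 and 29.6 CPM in Ly6Clo libraries with IL-21, against 62.2 and 31.8 CPM without it. In Ly6Chi libraries Itgal had 75.3 and 14.9 CPM with IL-21, against 94.3 and 45.8 CPM without it. As for Itgb2, the level with IL-21 was the lower in each same-numbered comparison. The values within the Ly6Chi group with IL-21 differed by more than those of any other group, and the lowest of them rests on 3 counts. Itgax, which encodes alpha X (CD11c) and marks dendritic cells and some macrophages, had 12 counts over all 8 libraries and 0 in 3 of them, so its levels of 0 to 13.2 CPM are near the limit of detection. Its highest levels, 12.5 and 13.2 CPM, were those of the Ly6Clo libraries without IL-21. Itgad, the fourth alpha partner of beta 2, had 0 counts.

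Itgb1, the beta 1 chain (CD29) of most matrix-binding integrins, followed Itgb2 in abundance. In Ly6Clo libraries numbered 1 and 2 it had 454 and 266 CPM with IL-21, against 508 and 270.1 CPM without it. In Ly6Chi libraries it had 382 and 397 CPM with IL-21, against 336 and 278 CPM without it. The Ly6Clo libraries numbered 1 were the highest and those numbered 2 the lowest, so the spread within Ly6Clo covered the Ly6Chi values. Itgb7, the beta chain of the gut-homing integrin with alpha 4, had 4.96 to 24.6 CPM and at most 10 counts in a library.

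Among the alpha chains that pair with beta 1, Itga6, which encodes the laminin receptor chain alpha 6, was the most abundant. In Ly6Clo libraries numbered 1 and 2 Itga6 had 397 and 160.4 CPM with IL-21, against 305 and 172 CPM without it. In Ly6Chi libraries it had 180.2 and 167 CPM with IL-21, against 189 and 150.1 CPM without it. The Ly6Clo libraries numbered 1 stood above the other 6, which lay between 150.1 and 189 CPM.

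Itga4, which encodes alpha 4 (CD49d), the chain that binds VCAM-1 and fibronectin, followed the replicate number. Its levels in Ly6Clo libraries numbered 1 and 2 were 94.9 and 44.4 CPM with IL-21, against 124 and 49.0 CPM without it. In Ly6Chi libraries Itga4 had 157 and 64.5 CPM with IL-21, against 136 and 68.6 CPM without it. In each group the library numbered 2 had the lower level, and the groups overlapped widely. Cerkl, on the opposite strand, covers 8.04% of the exonic bases of Itga4, and reads from the overlap could not be told apart if strand was not used in counting.

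Itgav, the alpha chain of the vitronectin receptors, had 98.4 and 67.5 CPM in Ly6Clo libraries with IL-21, against 129 and 78.2 CPM without it. In Ly6Chi libraries Itgav had 56.5 and 64.5 CPM with IL-21, against 71.7 and 91.2 CPM without it. Within each subset and number the library with IL-21 was lower, but the ranges with and without IL-21 overlapped. Itga5, the alpha chain of the fibronectin receptor, had 6.98 to 26.6 CPM from at most 6.5 counts in a library. Of the 17 other integrin chains, Itgb5, the beta 5 partner of alpha V, was the only gene with a mean of at least 10 counts, at 88.3 ± 38.8 CPM (SD over all 8 libraries). Itgb3, whose product also pairs with alpha V, had 2 counts or fewer in every library.

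**Figure D2:**
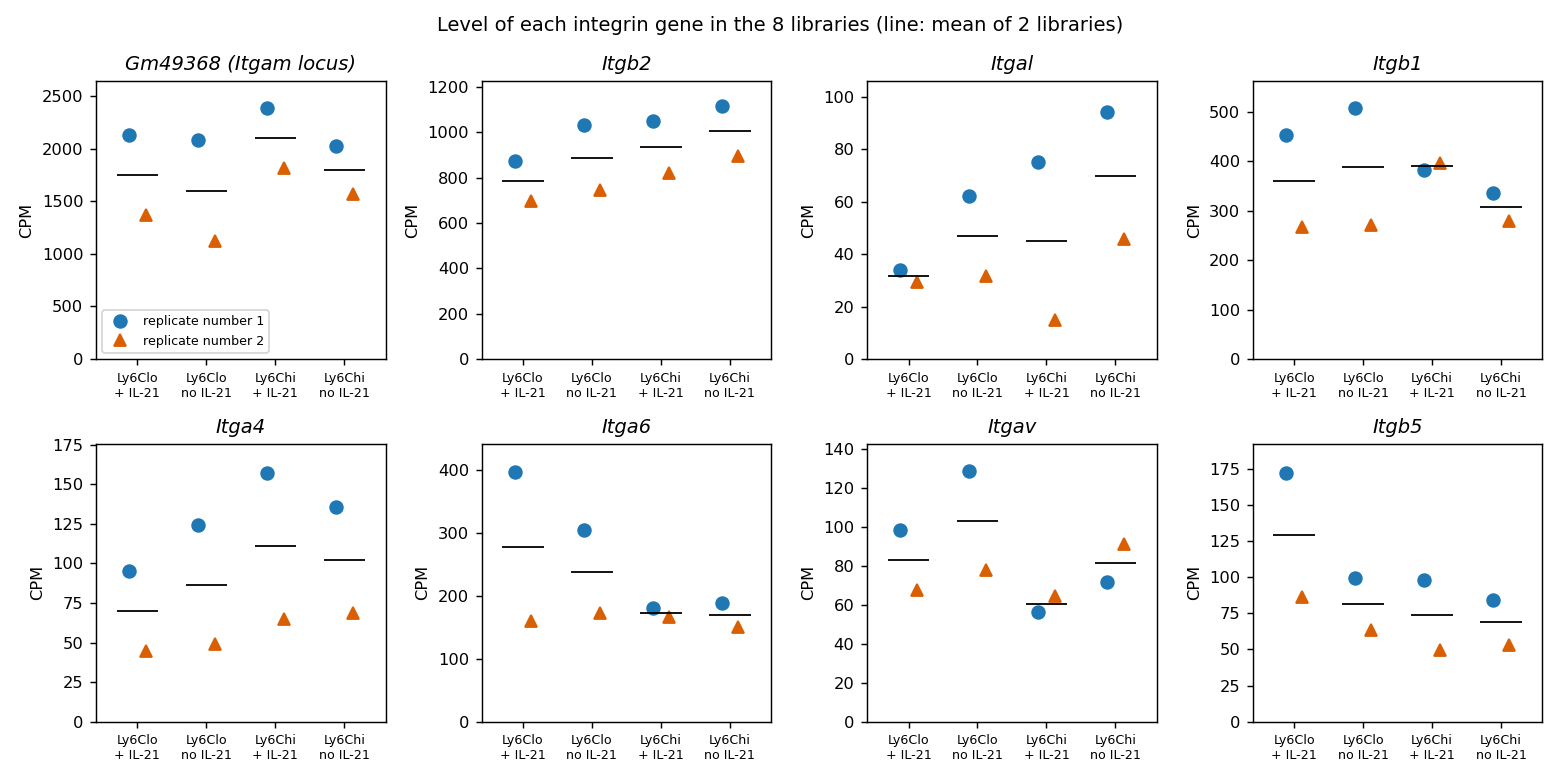
CPM of 8 integrin genes in each library, by group on the horizontal axis, with circles for libraries numbered 1, triangles for those numbered 2 and a line at the mean of both. For Itga4 every triangle, at 44.4 to 68.6 CPM, lies below every circle, at 94.9 to 157 CPM, while the groups overlap.

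Averaged over all 8 libraries the order of the listed genes, with the locus and Itgb5, was the Gm49368 locus (1810.2 ± 428 CPM), Itgb2 (903 ± 151 CPM), Itgb1 (361 ± 90.0 CPM), Itga6 (215 ± 88.2 CPM), Itga4 (92.3 ± 42.4 CPM), Itgb5, Itgav (82.1 ± 23.4 CPM), Itgal (48.5 ± 26.7 CPM), Itgb7 (14.9 ± 6.05 CPM), Itga5 (11.9 ± 6.72 CPM) and Itgax (4.69 ± 5.34 CPM), with the SD over libraries. The ranges of the first 3 did not overlap each other. Itgb1 and Itga6 overlapped, and Itga6 also overlapped with Itga4 and Itgb5. Itga4, Itgb5, Itgav and Itgal overlapped each other, and the order within Itgal to Itgax rests on few counts.

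The first question of the design was whether IL-21 changed these genes. None of the 6 tested members passed the threshold, an adjusted p under 0.05 by edgeR's quasi-likelihood test, with the subsets averaged, in Ly6Clo or in Ly6Chi. Of the 6, 0 had an unadjusted p under 0.05 in any of these. Over all 5256 tested genes 0.171% were called in the averaged comparison, 0.133% in Ly6Clo and 0.019% in Ly6Chi, so a count of 0 among 6 genes is near the background. An unadjusted p under 0.05 was found for 5.33% of all genes in the averaged comparison and for 3.52% in each subset. DESeq2 and limma-voom also called 0 members. The platelet marker list differed with IL-21 over the same libraries. Its summed level was 2899 to 3760 CPM with IL-21 and 1712 to 2005 CPM without it, nearly all from Pf4, with 3 of 6 markers detected and Itga2b, Gp9 and Gp1ba at 0. The fibroblast list, at far lower levels, summed to 116 and 136 CPM in Ly6Clo libraries numbered 1 and 2 with IL-21, against 20.8 and 32.9 CPM without it. In Ly6Chi it went the other way, at 15.8 and 72.0 CPM with IL-21 against 71.7 and 160 CPM without it. The cardiomyocyte list was highest, at 87.9 CPM, in the Ly6Clo library with IL-21 numbered 1, and at most 53.2 CPM in the others. The part of these lists in the levels of the integrin genes was not tested.

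The size of change that these libraries leave possible differed by gene. For Itgb2 the averaged log2 fold change was -0.14 (SE 0.17), with a 95% interval of -0.51 to 0.22, from 860 ± 147 CPM with IL-21 and 947 ± 162 CPM without it (SD, n = 4 each). For Itgb1 it was 0.12 (95% interval -0.36 to 0.60), and for the Gm49368 locus 0.18 (-0.29 to 0.65). For the effect averaged over the subsets, these intervals leave out a doubling or a halving of the 3 most abundant integrin genes. Within Ly6Chi alone the Itgb1 interval, -0.35 to 1.03, includes a doubling. The averaged intervals were wider for the alpha chains, with -0.38 (-0.95 to 0.18) for Itgav, 0.13 (-0.52 to 0.78) for Itga6, -0.05 (-1.002 to 0.91) for Itga4 and -0.51 (-1.43 to 0.41) for Itgal. The Itgal value was -1.34 without the Ly6Chi library with IL-21 numbered 1 and -0.19 without that numbered 2. Itgb5 had 0.42 (-0.25 to 1.085). The adjusted p was 1 for each of these genes by edgeR. The median log2 fold change of the 6 members was -0.09, against -0.01 over all genes tested.

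No member was called for a difference between the IL-21 effects of the subsets either, a comparison in which 0% of all genes were called and 1.75% had an unadjusted p under 0.05 by edgeR. Of the 6 members 0 had one. The log2 fold change of Itgb1 was -0.10 (SE 0.31) in Ly6Clo and 0.34 (SE 0.32) in Ly6Chi, and the difference of -0.44 (SE 0.45) had an edgeR unadjusted p of 0.346. For the remaining 5 members the unadjusted p of the difference was 0.615 to 0.972 by the same edgeR test. The IL-21 levels of 0 of 6 members were free of overlap with the levels without IL-21, against 3.65% of all genes.

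The second question was whether the subsets differed. Itga6, Itgav and Itgb1 had higher means in Ly6Clo than in Ly6Chi, and Itga4, Itgal and Itgb2 had lower ones, but 0 of 6 members passed, against 0.19% of all genes called, and 0 of 6 had an unadjusted p under 0.05 by edgeR, against 7.78%. Itga6 averaged 259 ± 113 CPM in Ly6Clo and 172 ± 17.1 CPM in Ly6Chi (SD, n = 4 each). Its log2 fold change was 0.55 (SE 0.29, 95% interval -0.10 to 1.20) with an edgeR adjusted p of 0.674. With 1 of the IL-21 libraries of Ly6Clo left out it was 0.17 (number 1 left out) or 0.82 (number 2 left out). Among libraries numbered 1 its log2 ratio was 0.91, and among those numbered 2 it was 0.07, so the difference was close to 0 within the second number.

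Itgal averaged 39.4 ± 15.3 CPM in Ly6Clo and 57.6 ± 34.7 CPM in Ly6Chi, a log2 fold change of -0.66 (SE 0.43, edgeR adjusted p 0.756), with log2 ratios of -0.88 among libraries numbered 1 and 0.23 among those numbered 2. Itga4 had a log2 fold change of -0.55 (SE 0.43, edgeR adjusted p 0.819), with the same sign in both numbers, -0.43 in the first and -0.51 in the second, and it was -0.14 to -0.91 with 1 library left out. Itgb2 had -0.23 (SE 0.17), with -0.19 and -0.25 within the numbers. Itgav had 0.35 (SE 0.26), with 0.82 and -0.08, and Itgb1 0.10 (SE 0.22), with 0.42 and -0.31. Thus Itga4, Itga6 and Itgb2 kept their sign in both numbers, and Itgb1, Itgav and Itgal did not. The members' median was -0.07, against 0.00 over all genes, and 0 of 6 were free of overlap between the subsets, against 5.35% of all genes.

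Without IL-21 and with IL-21 the comparison of the subsets likewise called 0 of 6 members. The background was 0.0381% without IL-21 and 0.019% with it. The monocyte marker list differed between the sorted subsets over the same libraries, with all 6 markers detected and a summed level of 179 to 281 CPM in Ly6Clo and 849 to 1081 CPM in Ly6Chi. The neutrophil list summed to 641 to 1262 CPM in Ly6Clo and 1403 to 2335 CPM in Ly6Chi with 6 of 8 markers detected, mostly from Mmp8, and Ly6g and Retnlg were at 0. Their part in the levels of the integrin genes was not tested, and in bulk samples fewer cells of a type and less RNA per cell cannot be told apart.

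**Figure D3:**
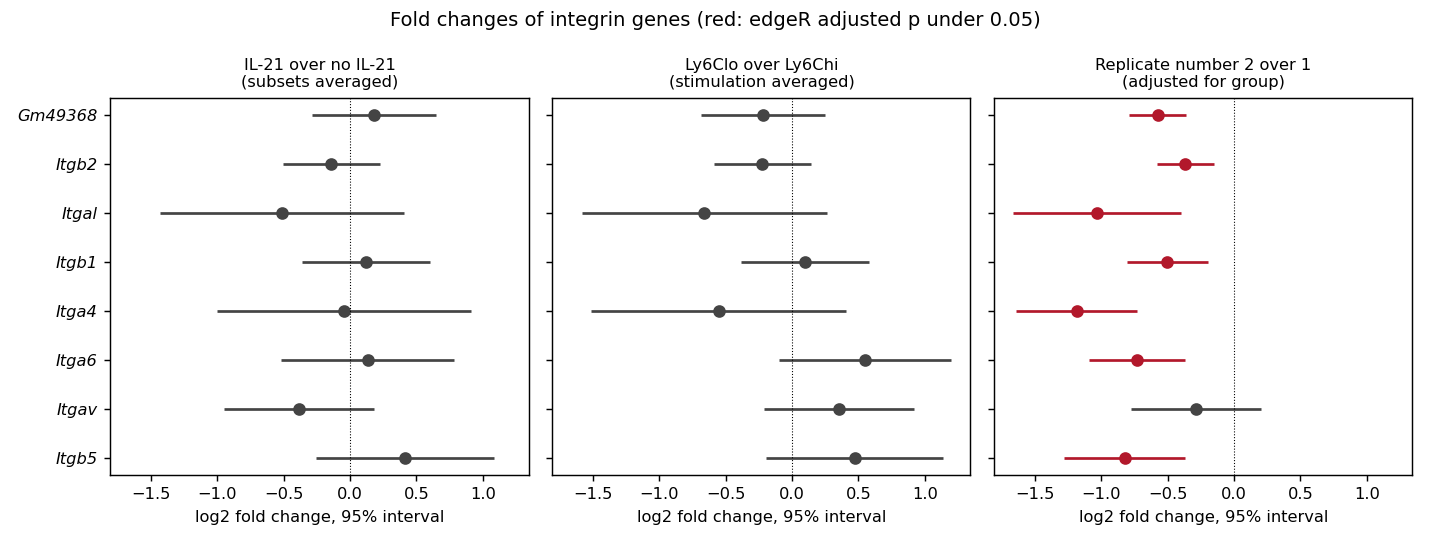
Log2 fold changes (points) with 95% intervals (bars) of 8 integrin genes for IL-21, for the subset and for the replicate number, on a common horizontal axis, with red marking an edgeR adjusted p under 0.05. All intervals for IL-21 and subset include 0, while those for the replicate number lie below 0 for each gene but Itgav.

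The clearest difference in the integrin genes was between the replicate numbers. With group in the edgeR model, 5 of the 6 tested members, Itga4, Itga6, Itgal, Itgb1 and Itgb2, were lower in the libraries numbered 2, whereas 3.6% of all genes were called lower and 4.6% higher. The comparison was added after the levels had been seen, and the labels do not say what the number stands for. Itga4 averaged 56.6 ± 11.8 CPM in libraries numbered 2 and 128 ± 25.8 CPM in those numbered 1 (SD, n = 4 each). The group-adjusted log2 difference was -1.19 (SE 0.22; edgeR adjusted p 0.000658).

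The log2 fold change of Itgal was -1.03 (SE 0.31, edgeR adjusted p 0.0362) and that of Itga6 was -0.73 (SE 0.18, edgeR adjusted p 0.00873). It was -0.50 (SE 0.15, edgeR adjusted p 0.0356) for Itgb1 and -0.37 (SE 0.10, edgeR adjusted p 0.0266) for Itgb2. Itgav did not pass, at -0.28 (SE 0.24). The Gm49368 locus (-0.58, SE 0.11, edgeR adjusted p 0.000503) and Itgb5 (-0.82, SE 0.22, edgeR adjusted p 0.0197) were lower as well. Itga4 and Itga6, 2 of the 6 members, had no overlap between the numbers, against 5.1% of all genes lower without overlap. With DESeq2 Itga4 alone passed, and 131 of 5256 genes were called in either direction, against 431 with edgeR. Without 1 of the libraries the number of members called was 1 to 4, and it was 1 without either Ly6Clo library without IL-21. It was 2 without either Ly6Clo library with IL-21, 3 without either Ly6Chi library without it and 4 without either Ly6Chi library with it. Leaving out a library takes its whole group out of this comparison, so both libraries of a group gave the same count, and Itga4 was called in all 8 of these fits. Over all genes, of which 5815 to 5971 passed the filter in these fits, calls numbered 177 and 181 without a Ly6Clo library without IL-21, 226 and 228 without a Ly6Clo library with it, 378 and 382 without a Ly6Chi library without it, and 416 and 419 without a Ly6Chi library with it.

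The summed levels of some marker lists differed between the numbers too. The macrophage markers summed to 8409 to 9364 CPM in libraries numbered 2 and 10321 to 12808 CPM in those numbered 1. Lyz2 was the largest part, at 2489 to 3446 CPM in libraries numbered 2 and 4238 to 6773 CPM in those numbered 1. Csf1r was lower too, at 554 to 684 against 808 to 1146 CPM. Fcgr1 went the other way, at 709 to 1048 against 501 to 653 CPM, and the remaining macrophage markers overlapped between the numbers. The endothelial list, nearly all of it Kdr and with 4 of 6 markers detected, summed to 189.8 to 343 CPM in libraries numbered 2 and 64.4 to 139 CPM in those numbered 1, with Emcn and Tie1 at 0 in every library. Total counts did not separate the numbers, at 224329 to 483593 in libraries numbered 2 and 257385 to 287131 in those numbered 1. Within Ly6Clo they did, at 444670 and 483593 in libraries numbered 2 against 269064 and 257385 in those numbered 1 (with and without IL-21). In Ly6Chi they were 224329 and 284174 against 287131 and 261205. The part of the marker lists and of depth in the lower integrin levels was not tested.

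Since an integrin reaches the surface as a pair of chains, ratios of counts within a library, which need no scaling, were compared too. Of the 6 ratios 5 were of an alpha chain or the Gm49368 locus to its beta chain, and the other was of Itgb2 to Itgb1. Of 12 comparisons (each ratio for IL-21 and for the subset), 0 passed after Benjamini-Hochberg adjustment by a two-sided exact permutation test. With 4 against 4 libraries this test cannot give a p below 0.0286. A single comparison at this smallest permutation p has an adjusted p of 0.343 over 12 tests. Several would have to reach it together for any to pass, so 0 passing does not show that the ratios were equal. These ratios were chosen after the levels had been seen. Itga6 per Itgb1 was 0.679 ± 0.132 in Ly6Clo and 0.499 ± 0.0654 in Ly6Chi (SD, n = 4 each), with the range of 0.600 to 0.875 in Ly6Clo above that of 0.420 to 0.564 in Ly6Chi (exact permutation p 0.0286, the smallest possible, and adjusted p 0.343). Since these ranges do not overlap, the ratio was necessarily higher in Ly6Clo in 4 of 4 same-numbered comparisons. The mean log2 difference was 0.49 in the first number and 0.38 in the second.

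Counts of the Gm49368 locus per count of Itgb2 were 2.22 ± 0.195 with IL-21 and 1.77 ± 0.212 without it (SD, n = 4 each), higher in 4 of 4 same-numbered comparisons (exact permutation p 0.0571, adjusted p 0.343). The mean log2 difference was 0.30 in the first number and 0.36 in the second. The ranges overlapped, at 1.96 to 2.44 with IL-21 and 1.505 to 2.02 without it. Itgav per Itgb1 was 0.195 ± 0.0490 with IL-21 and 0.271 ± 0.0489 without it, lower in 4 of 4 same-numbered comparisons (exact permutation p 0.143, adjusted p 0.386). Such a run was common among these ratios. Itgal per Itgb2 and Itgb2 per Itgb1 were also lower with IL-21 in 4 of 4. Itga4 per Itgb1 and Itga6 per Itgb1 were each higher with IL-21 in 1 of 4. The share of all genes with such a run is not given here.

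**Figure D4:**
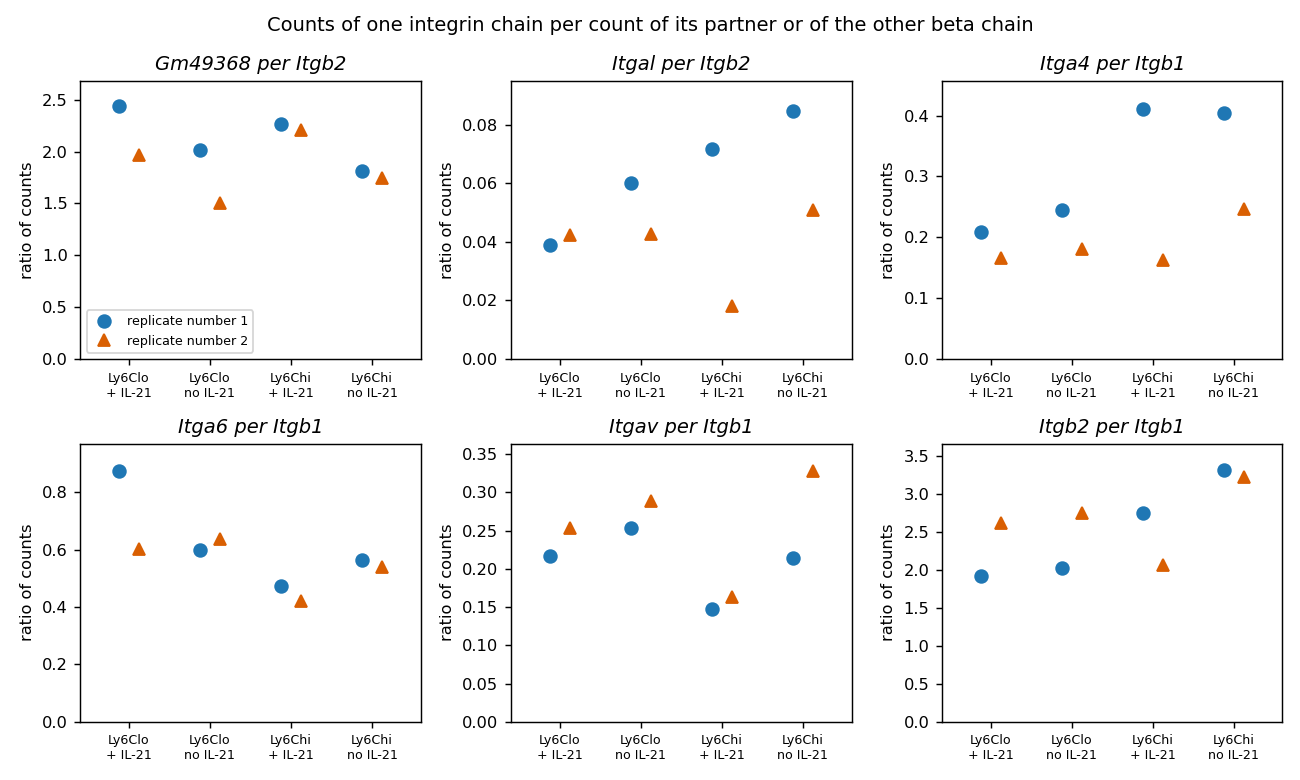
Ratio of the counts of 2 integrin genes in each library, by group, with circles for libraries numbered 1 and triangles for those numbered 2. For Itga6 per Itgb1 the 4 Ly6Clo libraries lie at 0.600 to 0.875 and the 4 Ly6Chi libraries at 0.420 to 0.564.

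The machinery around the integrins was read through a list of 33 genes for activation and adhesion adaptors, such as talin, kindlin 3 and the kinases below the receptors, and a list of 28 ligand genes. Of the 25 adaptor genes tested, 0 passed for IL-21 averaged over the subsets and 0 for the subset difference, and 12 and 4 of them had a positive log2 fold change. Over all genes tested, 2568 of 5256 were positive for IL-21 and 2650 of 5256 for the subset difference. The adaptors' median was -0.01 for IL-21 and -0.13 for the subset difference, against -0.01 and 0.00 over all genes. Among the smallest p values for IL-21 were those of Zyx, which encodes the focal adhesion protein zyxin (log2 fold change 0.53, SE 0.21), and the Src-family kinase gene Fgr (0.62, SE 0.33), neither of which passed (edgeR adjusted p 0.829 for Zyx and 0.998 for Fgr). For the subset they included Zyx (-0.50, SE 0.21) and Parvg, which encodes the adaptor gamma parvin (-1.24, SE 0.53), and neither passed (edgeR adjusted p 0.562 for both).

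Of 28 ligand genes 27 were in the files and 5 were tested, and 0 passed in either comparison. Spp1, which encodes osteopontin, a ligand of alpha V and alpha 4 integrins, was the most abundant of them. In Ly6Clo libraries numbered 1 and 2 Spp1 had 10368 and 4805 CPM with IL-21, against 6688 and 2927 CPM without it. In Ly6Chi libraries it had 3541 and 3679 CPM with IL-21, against 2426 and 2235 CPM without it. Its log2 fold change was 0.65 (SE 0.31, edgeR adjusted p 0.996) for IL-21 and 1.06 (SE 0.31, edgeR adjusted p 0.456) for Ly6Clo against Ly6Chi, so neither passed.

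Lamc1, a laminin chain, had 0.72 (SE 0.38) and the junctional adhesion molecule gene F11r 0.11 (SE 0.21) for IL-21. For the subset F11r had -0.59 (SE 0.21) and Thbs1, which encodes thrombospondin 1, -1.17 (SE 0.65). None of these passed (edgeR adjusted p 0.5 to 1). The fibrinogen genes Fga, Fgb and Fgg had 0 counts, and Icam1 had 4.76 to 16.3 CPM, below the filter on low counts.

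Across the 8 libraries the genes whose log2 CPM followed Itgb2 most closely were Unc93b1 (Pearson r 0.962), Csf2ra (0.949) and the integrin-binding filamin gene Flna (0.947), from 2924 genes searched. For Itgb1 they were Pigt (0.960), Arl4c (0.952) and Itm2c (0.950). These are descriptions over 8 libraries that have the replicate number and depth in common.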

How the data were processed

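The authors deposited expected counts, that is, estimated and partly fractional counts for each Ensembl gene, under column headers that call them raw. Of the values above 0, 53.3 to 59.7% per library were not whole at a tolerance of 0.001. Per the labels' protocols, a QuantSeq 3' FWD kit with a module for unique molecular identifiers was used, and reads were single-end. The build mm10 and DESeq2 are named per the submitters' processing notes. For the aligner, counting program, annotation and use of identifiers and strand, the sources used here give nothing. If identifiers were not used, counts include amplified copies.

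The planned design assumed expected counts, so values were rounded. Symbols came from GENCODE M21 (GRCm38), which matched 53237 of 53342 identifiers. Genes were kept by filterByExpr (minimum count 10, minimum total 15), which left 5256. One model with 4 group means was fitted to all 8 libraries with edgeR 4.0.16 (TMM, robust quasi-likelihood F test, R 4.3.3), with Benjamini-Hochberg adjustment over all genes tested. CPM are unrounded counts per TMM-scaled total of the genes kept. Intervals of fold changes use the quasi-likelihood degrees of freedom. DESeq2 1.42.0 and limma-voom 3.58.1 were alternatives. The fit was also run on simulated counts with large planted changes and no difference between replicate numbers, as a check of the code only. Its outcome is not given here, and it does not bear on the smaller changes described above.

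All 10 members are described. Named besides are other integrin chains with a mean of at least 10 counts, adaptor and ligand genes that passed or had the 3 smallest p values per averaged comparison, and the 3 genes most like Itgb2 and Itgb1 (mean count at least 20, log2 of CPM + 1). One adaptor gene that this rule names is not reported here. Gm49368, Itgad, Itgb3, Icam1 and the fibrinogen genes were named after their values were seen. The members and lists were chosen with earlier results of these data known. The replicates of a group differed by more than sampling noise, with a chi-square of 2.17 to 3.28 per degree of freedom.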

Additional observations from a re-analysis of the deposited data

How the results depend on the processing

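In all alternatives tried (DESeq2 size factors, the DESeq2 test, limma-voom, no filter on low counts, a mean count of at least 20, unrounded values, the replicate block, and each library left out), 0 members were called for IL-21, for the subset or for the difference of IL-21 effects. Fitting the groups of a contrast alone, which was run for IL-21 within each subset and for the subset with and without IL-21, also called 0. In averaged comparisons 11 of the fold changes turned sign, all of them in fits with a library left out. For IL-21 averaged over the subsets these fits gave log2 fold changes of -0.45 to 0.32 for Itga4, -0.25 to 0.41 for Itga6 and -0.09 to 0.37 for Itgb1. For Ly6Clo against Ly6Chi they gave -0.99 to 0.17 for Itgal and -0.15 to 0.30 for Itgb1. Values that kept their sign also moved. For IL-21 they were -1.34 to -0.19 for Itgal, -0.56 to -0.21 for Itgav and -0.25 to -0.02 for Itgb2, and for the subset 0.17 to 0.82 for Itga6, -0.91 to -0.14 for Itga4, 0.19 to 0.53 for Itgav and -0.34 to -0.12 for Itgb2.

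The replicate number as a block left the count of members called at 0 in every comparison. The labels do not say that a number marks a shared mouse, and differences between the numbers correlated at 0.213 to 0.390 between groups. With the block, 3 of 6 members and 770 of 5256 genes had an unadjusted p under 0.05 for the subset, Itga6 had a log2 fold change of 0.54 (edgeR adjusted p 0.117), and calls over all genes were 60 for IL-21 and 132 for the subset, against 9 and 10 without it. Without a filter on low counts these were 35 and 58.

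The difference between the numbers held for 4 or 5 members under other scalings, filters and limma-voom, and for 1 with the DESeq2 test. With a library left out it held for 1 to 4. Over all genes, calls in either direction were 443 of 5256 with DESeq2 size factors, 421 of 5256 with library totals only and 449 of 5256 with limma-voom. They were 438 of 17757 without a filter, 381 of 2924 at a mean count of at least 20 and 422 of 5298 with unrounded values. Itgax, Itga5 and Itgb7 were under the filter on low counts. Tested by edgeR without it, 0 of these 3 had an unadjusted p under 0.05 for IL-21 or for the subset.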

Other observations

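Itga1, which encodes the alpha 1 chain of a collagen receptor, was too rare for the main comparison and was named after its values were seen. In Ly6Clo libraries numbered 1 and 2 it had 23.9 and 7.39 CPM with IL-21, against 8.30 and 0 CPM without it. In Ly6Chi libraries it had 65.9 and 14.9 CPM with IL-21, against 26.6 and 1.91 CPM without it. The library with IL-21 was higher in 4 of 4 same-numbered comparisons, from 38.5 counts in all. Without a filter on low counts its averaged log2 fold change was 1.97 (SE 0.64), with an edgeR unadjusted p of 0.00206 and an adjusted p of 0.434, which did not pass. Gm49395, on the same strand, covers 3.68% of the exonic bases of Itga1 and none of its last 500.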
